A study of Vitis vinifera with 12 samples.

Results

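Young leaves of the grape cultivar Bangalore blue were set against young leaves of both other cultivars of the series, Red globe and Dilkhush. A row of the leaf table was taken where its Bangalore blue value lay at least 4-fold from both others in the same direction on the RPKM + 1 scale. At least 10 RPKM was required in the higher cultivar, and names starting TRNA were left out. RPKM divides the reads of a transcript by its length and by the total mapped. Of 25253 rows 24905 had other names, 12057 reached 10 RPKM in at least 1 leaf, and 188 met the rule. Bangalore blue was the higher in 146 of them and the lower in 42.

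The series compares cultivars that differ in anthocyanin content, with RNA from young leaves and from fruit peels. The labels name Vitis vinifera for every sample and give a cultivar and a tissue only, with no plant age, site, season or treatment. Each of the 6 groups had 2 libraries, 12 in all, and the labels do not say whether they came from separate plants. The deposited tables hold 1 RPKM value per cultivar and tissue, so no value has a replicate error, no difference could be tested against replicate spread, and the sequencing depth is unknown. "Called" is used below for a row past the 4-fold limit and the floor of 10 RPKM, and describes these columns alone. Log2 differences are of RPKM + 1, which understates the difference of rows with low values. The leaf values chose the rows and are given as a description, while the peel table played no part in the choice.

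Leaves of grapevine make carotenoids for photosynthesis and light protection, and some of these are cleaved to smaller products. Cleavage of 9-cis-epoxycarotenoids is the step that commits them to abscisic acid, the hormone of water shortage, under which dehydrins and other protective proteins accumulate. Flavonoids and stilbenes are made from phenylalanine, and glutathione S-transferases and O-methyltransferases act late in those pathways. Bangalore blue is commonly described, outside the labels, as a hybrid of the labrusca type. How reads that differ from the reference were placed was not examined.

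The leaf columns had similar medians, at 5.83 RPKM in Bangalore blue, against 6.04 in Red globe and 5.95 in Dilkhush. Over the 12057 rows at the floor the median log2 difference of Bangalore blue was -0.04 from Red globe and -0.03 from Dilkhush. The 3 leaf marker rows (PSBP1, PSBP2 and CHLH) summed to 2755 RPKM in Bangalore blue, against 686 in Red globe and 2482 in Dilkhush leaf. In peel the same rows summed to 279 to 553 RPKM. The 9 ripening fruit rows summed to 397 to 654 RPKM in leaf and 13486 to 22209 in peel. PSBP1 made up most of the leaf sums, at 2084 RPKM in Bangalore blue leaf, 494 in Red globe and 1758 in Dilkhush. In the same order CHLH was at 597, 138 and 629 RPKM, and PSBP2 at 74.7, 54.4 and 95.1. The Red globe leaf was therefore low in PSBP1 and CHLH, and less so in PSBP2. The part of this in the differences from Red globe was not tested.

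Bangalore blue leaf was higher than both others in 1.21% of the 12057 rows and lower in 0.348%. The same rule found 120 rows higher (0.995%) and 136 lower (1.13%) for Red globe, and 97 higher (0.805%) and 120 lower (0.995%) for Dilkhush. Higher rows were 77.7% of all called for Bangalore blue, 46.9% for Red globe and 44.7% for Dilkhush. With the leaf columns scaled to an equal total without TRNA rows, Red globe turned to 142 higher and 114 lower, while Bangalore blue had 139 and 43 and Dilkhush 95 and 123. These 3 comparisons share columns. Against 1 cultivar at a time, Bangalore blue was higher in 362 rows (3.12%) and lower in 242 (2.09%) against Red globe, and higher in 292 (2.59%) and lower in 165 (1.46%) against Dilkhush.

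**Figure D1:**
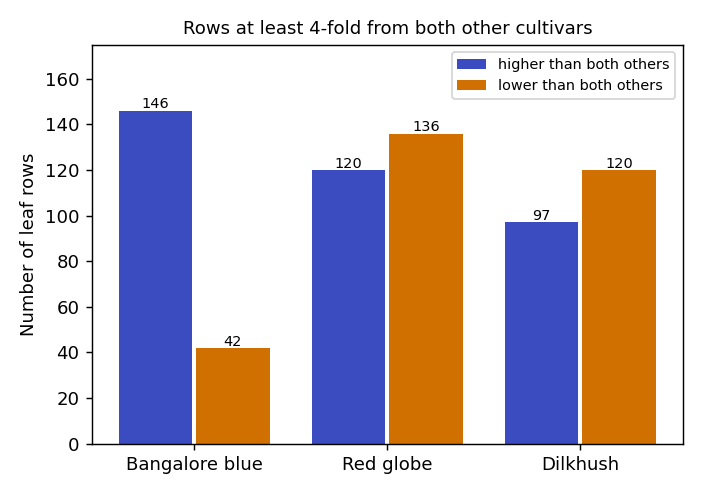
Number of leaf rows at least 4-fold higher or lower than both other cultivars, for each cultivar in turn, with the count axis starting at 0. Bangalore blue had 146 rows higher and 42 lower, while Red globe had 120 and 136 and Dilkhush 97 and 120.

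**Figure D2:**
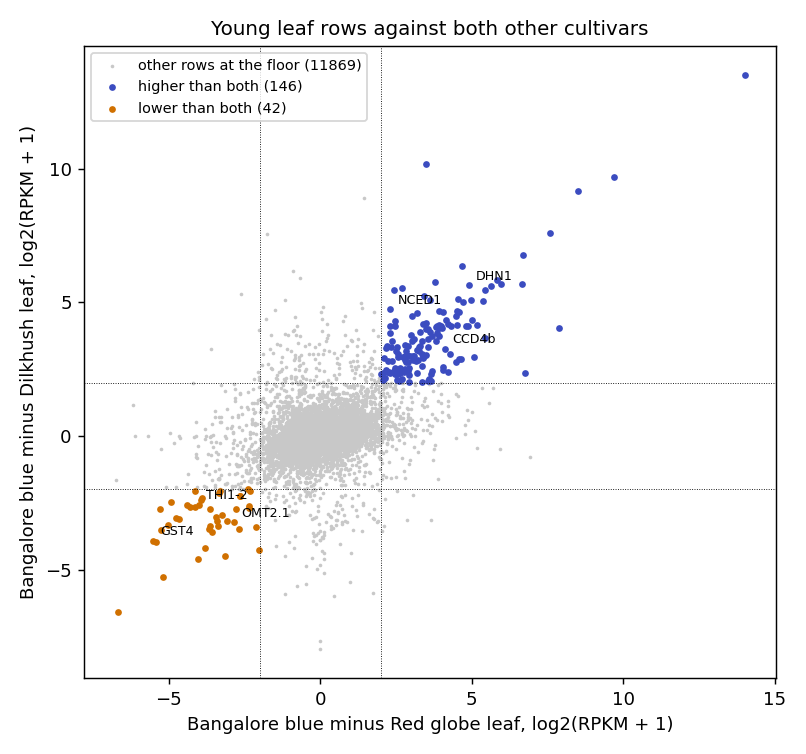
Each point is a leaf row at the floor of 10 RPKM, placed by the log2 difference of RPKM + 1 between Bangalore blue and Red globe (horizontal) and Dilkhush (vertical), with dotted lines at the 4-fold limit. The 146 higher rows lie at the upper right and the 42 lower rows at the lower left, and 6 rows with a gene symbol are labelled.

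Gene symbols or synonyms were available for 12 of the 188 rows, 9 higher and 3 lower, and the other 176 carry LOC numbers only. Of 237 rows at the floor with a symbol, those 12 are 5.06%, against 1.56% of all rows at the floor. The difference between these shares was not tested. A further 18 of the 237 were past the limit against 1 of the other cultivars only. The share of all rows past it against 1 only was not counted, so nothing is read from the 18. The symbols are few, and give no view of what the unnamed rows encode.

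The abscisic acid, dehydration and cold genes held 3 higher rows of 6 at the floor and 0 lower, with a median smaller difference of 1.76 against -0.02 over all rows at the floor. Over all rows at the floor 1.21% were higher and 0.348% lower. The 3 rows are DHN1, NCED1 and CCD4b, and the last is described with the carotenoid genes. DHN1 (LOC100232959), a dehydrin, stood at 72.0 RPKM in Bangalore blue leaf, against 1.43 in Red globe and 0.462 in Dilkhush. Its log2 differences were 4.91 and 5.64. NCED1, the epoxycarotenoid dioxygenase that commits carotenoids to abscisic acid, stood at 65.3 RPKM in Bangalore blue, against 12.4 in Red globe and 1.46 in Dilkhush. The other cultivars were themselves far apart for NCED1, with log2 differences of 2.31 and 4.75 from Bangalore blue.

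The other 3 rows of that group at the floor were not called. NCED2, a second epoxycarotenoid dioxygenase, was at 12.3, 4.76 and 3.46 RPKM in Bangalore blue, Red globe and Dilkhush, the order used for every set of 3 values below. CBF4, a cold-response transcription factor, was at 16.2, 26.3 and 0.278 RPKM, so Dilkhush alone was low. RD22-C, named for its response to drying, was at 181, 297 and 86.8 RPKM, with Bangalore blue between the others.

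The carotenoid genes, a list added after the values were seen, held 3 higher rows of 8 at the floor and 0 lower, against 1.21% and 0.348% of all rows. The list shares NCED1, NCED2 and CCD4b with the group above, so of its higher rows BCH1 alone was not already counted. CCD4b (LOC100252859), a carotenoid cleavage dioxygenase, was at 19.9 RPKM in Bangalore blue, against 0.197 in Red globe and 1.17 in Dilkhush, with log2 differences of 4.13 and 3.27. BCH1, a beta-carotene hydroxylase, was at 28.8, 1.49 and 5.94 RPKM, and its larger log2 difference, from Red globe, was 3.58. Its smaller difference, from Dilkhush, decided the call and was only a little past the 4-fold limit. CCD4b was therefore low in both other cultivars, and BCH1 was low in Red globe and less so in Dilkhush. ZEP, the epoxidase upstream of NCED1, was at 137, 40.6 and 122 RPKM, so Bangalore blue and Dilkhush stood together above Red globe. CCD1, at 130, 78.2 and 148 RPKM, and PDS1, an early carotenoid desaturase, at 44.3, 27.7 and 54.3, were highest in Dilkhush.

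Among chitinases, which cut the chitin of fungal walls, 2 of 4 rows at the floor were higher and 0 lower, against 1.21% and 0.348% of all rows, again a list added after the values were seen. CHI4D was at 164 RPKM in Bangalore blue leaf, against 30.8 in Red globe and 22.6 in Dilkhush. LOC100232985, with the synonyms chit1a and CHIT1B, was at 153, 19.4 and 21.3 RPKM, with log2 differences of 2.91 and 2.79. The other chitinases were not higher in Bangalore blue: CHI4C was at 8.56, 28.5 and 9.37 RPKM and CHIT3 at 16.1, 49.4 and 25.1. A separate defence list, which leaves out CHI4D and CHI4C, held 1 higher row of 13 at the floor, and that row is chit1a again. PR10.2, a pathogenesis-related protein gene, was at 545, 83.3 and 956 RPKM, so Red globe alone was low.

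Calcium-sensor kinases and their CBL partners held 2 higher rows of 23 at the floor, against 1.21% of all rows, and 1 of the 2 is a CIPK16 row. The CBL genes were added to this list after the values were seen. CIPK proteins are kinases switched on by calcium-binding CBL proteins. CIPK15 (LOC100259329) was at 56.0 RPKM in Bangalore blue, against 8.42 in Red globe and 12.6 in Dilkhush. Its log2 difference from Dilkhush, 2.07, was only a little past the limit. CIPK16 sits on 2 rows of the table. The called row held 50.7, 1.75 and 8.70 RPKM, and the other held 57.1, 1.48 and 19.3, which missed the limit against Dilkhush.

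Glutathione S-transferases, which join glutathione to other molecules, were called in both directions. They are on a list of specialised metabolism enzymes, which held 1 higher and 2 lower rows of 17 at the floor. Over all rows at the floor 1.21% were higher and 0.348% lower. The called rows of that list are GST3, GST4 and OMT2.1, and its median smaller difference was -0.32. GST3 was at 18.4 RPKM in Bangalore blue leaf, against 1.49 in Red globe and 1.4 in Dilkhush. GST4, which in grape takes part in moving anthocyanins into the vacuole, was at 2.58, 162 and 53.2 RPKM, with log2 differences of -5.51 and -3.92. GST1 was at 8.43, 15.5 and 17.8 RPKM and was not called.

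GST4 was the only called row of the 22 flavonoid and anthocyanin rows at the floor, where 1.56% of all rows were called. Nothing is read from a count this small. The median smaller difference of the 22 rows was 0.07, against -0.02 over all rows at the floor. LDOX and DFR, enzymes of late anthocyanin synthesis, were within 2-fold of both other cultivars, at 927, 686 and 881 RPKM and at 320, 233 and 302 RPKM. UFGT, which adds the glucose that stabilises anthocyanins, was at 3.03, 11.6 and 7.87 RPKM. FAOMT, an anthocyanin O-methyltransferase, was at 3.47, 21.0 and 9.32 RPKM, past the limit against Red globe alone. MYBA6 and MYBA7, MYB activators of the pathway, were at 6.29, 21.5 and 17.4 RPKM and at 0.682, 4.32 and 4.07. MYBA7 stayed under the floor in every leaf and is not among the 22. MYBC2-L1, a MYB repressor of the pathway, was at 63.0, 8.78 and 18.4 RPKM, past the limit against Red globe and just short against Dilkhush. Other uncalled rows of the list were also highest in Bangalore blue, such as LAR1 at 62.7, 15.1 and 28.3 RPKM and CHS3 at 176, 70.5 and 135. The list thus held uncalled rows leaning each way.

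The other lower rows with a symbol were OMT2.1 and THI1-2. OMT2.1, whose synonyms name it a resveratrol O-methyltransferase, was at 0.278 RPKM in Bangalore blue, against 8.14 in Red globe and 10.9 in Dilkhush. THI1-2, a thiamine thiazole synthase gene, was at 46.0, 751 and 279 RPKM, with log2 differences of -4.00 and -2.57. Its paralog THI1-1 was at 316, 352 and 427 RPKM and was not called, although reads shared between such copies were not examined.

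**Figure D3:**
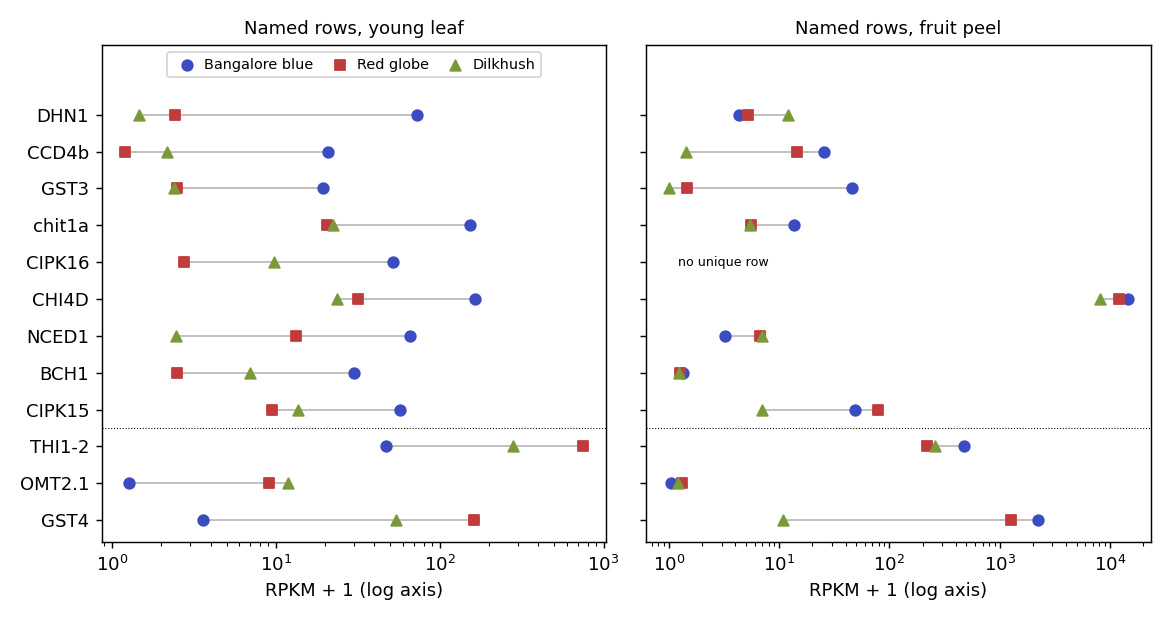
RPKM + 1 on a log axis for the 12 called rows with a gene symbol, with young leaf and fruit peel side by side and 1 marker per cultivar. Bangalore blue lies to the right of both others in leaf for the 9 higher rows and to the left for the 3 lower rows, while in peel GST3 alone is called.

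Sugar genes, water channels, photosynthesis genes, transcription factors, stilbene and lignin genes and the heat shock gene gave 0 called rows, of 10, 11, 4, 13, 2 and 1 at the floor. The lists were matched by symbol, and the called row OMT2.1 was not on the stilbene and lignin list. With 1.56% of all rows at the floor called, lists this short would hold few or no called rows at the background share, so nothing is read from these counts.

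The 137 higher rows without a symbol held the largest values. For all 146 higher rows the median was 35.4 RPKM in Bangalore blue leaf, against 1.94 in Red globe and 2.01 in Dilkhush. Both other cultivars were under 1 RPKM in 39 rows, 1 of them was in 26, and neither was in 81. Red globe and Dilkhush lay less than 2-fold apart in 109 of the 146. Bangalore blue reached 100 RPKM in 27 of the rows, and the smaller log2 difference was 3 or more in 68.

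The highest value belonged to LOC100251335, at 51019.5 RPKM in Bangalore blue leaf, against 2.11 in Red globe and 3.33 in Dilkhush. This row alone held 5.32% of the summed RPKM of the Bangalore blue leaf. The name is on a second row, at 0, 0.662 and 1.21 RPKM, which showed no such excess. LOC104877551 was at 836 RPKM in Bangalore blue, with both others listed at 0, and its second row was at 1.16, 4.68 and 7.94. LOC100267352 was at 2808.5, 247 and 1.44 RPKM, and its second row was at 24.5, 11.1 and 12.4. In all, 12 of the 188 called rows carry a name found on several rows, as do 586 of all 24905 rows. Of the 16 other rows of those names 0 were called. Only 1.56% of all rows at the floor were called, so nothing is read from that count. Some of the other rows leaned the same way as the called row. For LOC100259650 the called row held 0.517, 22.0 and 7.01 RPKM and the second row 0, 12.5 and 2.79. How the authors' counting divided reads among such rows is not given, so these values are uncertain.

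Rows with a single name also differed widely. LOC104878897 was at 193 RPKM in Bangalore blue, with both others listed at 0. LOC100241610 was at 245, 1.38 and 1.22 RPKM. LOC104880014 was at 596, 20.2 and 33.7 RPKM, and LOC100243519 at 1715, 202 and 213.

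The 42 lower rows had medians of 0.816 RPKM in Bangalore blue, against 28.6 in Red globe and 19.5 in Dilkhush. Bangalore blue was listed at 0 in 3 of them, was under 1 RPKM in 22 and reached 10 RPKM in 3. Red globe was above Dilkhush in 30. LOC100855105 was at 0.606, 56.8 and 62.1 RPKM and LOC100259463 at 0.0236, 15.8 and 23.8. LOC100259455 was listed at 0 in Bangalore blue against 101 and 95.0 RPKM, but its second row held 20.2, 13.8 and 22.8.

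LOC104880107 was just inside at 26.1, 5.76 and 4.48 RPKM, and LOC100257941 just outside at 21.6, 1.55 and 4.68. On the lower side LOC100854284 was inside at 0.0955, 3.39 and 20.2 RPKM, and LOC100244715 outside at 1.03, 14.1 and 7.0.

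In the order of the RefSeq gene table, 10 of 127 higher rows that could be placed lay next to another higher row (7.87%), against 1.14% of the 11662 rows at the floor. For the lower rows it was 9 of 34 (26.5%, against 0.266%). None of the called rows that were placed lay next to one of the other direction. The lower rows LOC100253044, LOC100247920 and LOC100265066 form a run of 3. Their RPKM was 5.02, 151 and 50.5, then 3.43, 65.6 and 21.0, and then 1.32, 87.6 and 25.5 in Bangalore blue, Red globe and Dilkhush. Neighbouring genes may be copies that share reads, and the likeness of their sequences was not examined.

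The peel table gives values that the choice of rows did not use. Of the 146 higher rows 132 had a single matching peel row, and in 20 of them (15.2%) Bangalore blue peel was also at least 4-fold above both other peels. Over the 11354 rows matched and at the leaf floor that share was 0.458%. Of 36 matched lower rows 10 (27.8%) were also lower in peel, against 0.687%. Among the rows matched and at the leaf floor, 52 were called higher in peel and 78 lower. The 20 rows are 38.5% of those 52, and the 10 are 12.8% of those 78. Peel rows outside that set are not counted here. Leaf and peel came from the same cultivars, and the reference they were read against is not given. The part of sequence differences in these counts was not tested.

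**Figure D4:**
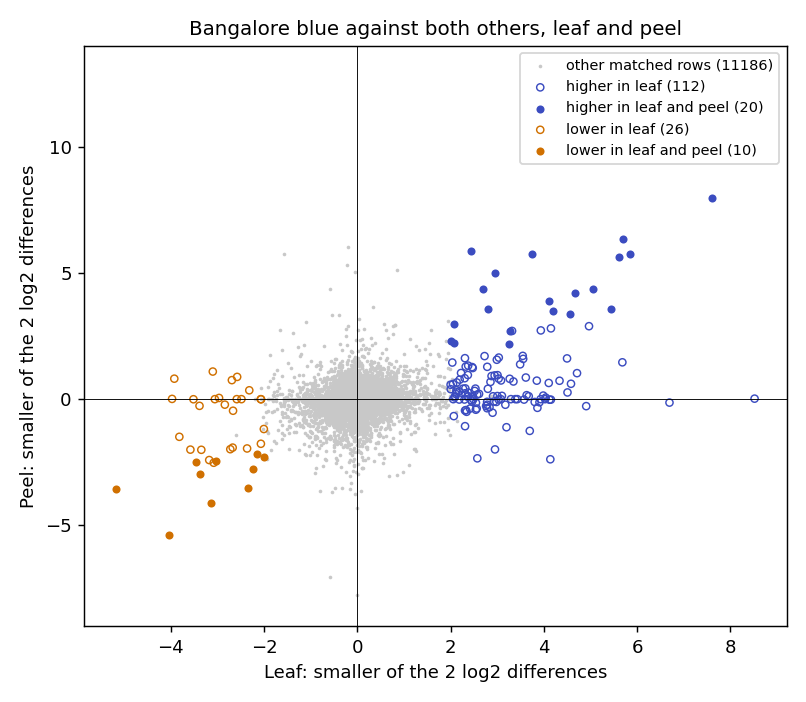
For each matched row at the leaf floor, the smaller of the log2 differences of RPKM + 1 between Bangalore blue and the other cultivars in leaf (horizontal) and in peel (vertical). Filled points are the 20 higher and 10 lower rows called the same way in both tissues, and most open points lie near 0 in peel.

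Most called rows were not past the limit in peel. The median smaller peel difference was 0.34 for the higher rows, -1.63 for the lower rows and -0.01 over all matched rows. Every peel was under 1 RPKM for 26 of the 132 and 9 of the 36. Where any peel reached 10 RPKM, 50 of 74 higher rows were higher than both by any amount (67.6%, against 30.5% of 8428 rows). For the lower rows, 15 of 18 were lower (83.3%, against 33.9%). Some rows reached that floor only through the cultivars that set their direction, such as LOC104878897 at 251 RPKM in Bangalore blue peel and 0 in both others. These shares are therefore partly fixed by the floor, and no conclusion is drawn from them.

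Among rows called higher in both tissues, 4 were listed at 0 in the leaf and peel of both other cultivars. LOC104878897 was at 193 RPKM in Bangalore blue leaf and 251 in peel. LOC104880964 was at 56.1 and 52.4, LOC104882265 at 48.2 and 48.4, and LOC100257357 at 42.7 and 10.9. In 9 of the 20 rows all other columns were under 1 RPKM. GST3 was the 1 row with a symbol, at 44.9 RPKM in Bangalore blue peel against 0.441 in Red globe, while the Dilkhush peel was listed at 0.

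For the 10 rows lower in both tissues, Bangalore blue ran from 0.0236 to 2.42 RPKM in leaf and from 0 to 4.42 in peel. LOC100855105 was at 4.31 RPKM in Bangalore blue peel, against 61.6 in Red globe and 87.7 in Dilkhush. LOC100259463 was at 0.564, 63.9 and 75.2 RPKM in peel.

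**Figure D5:**
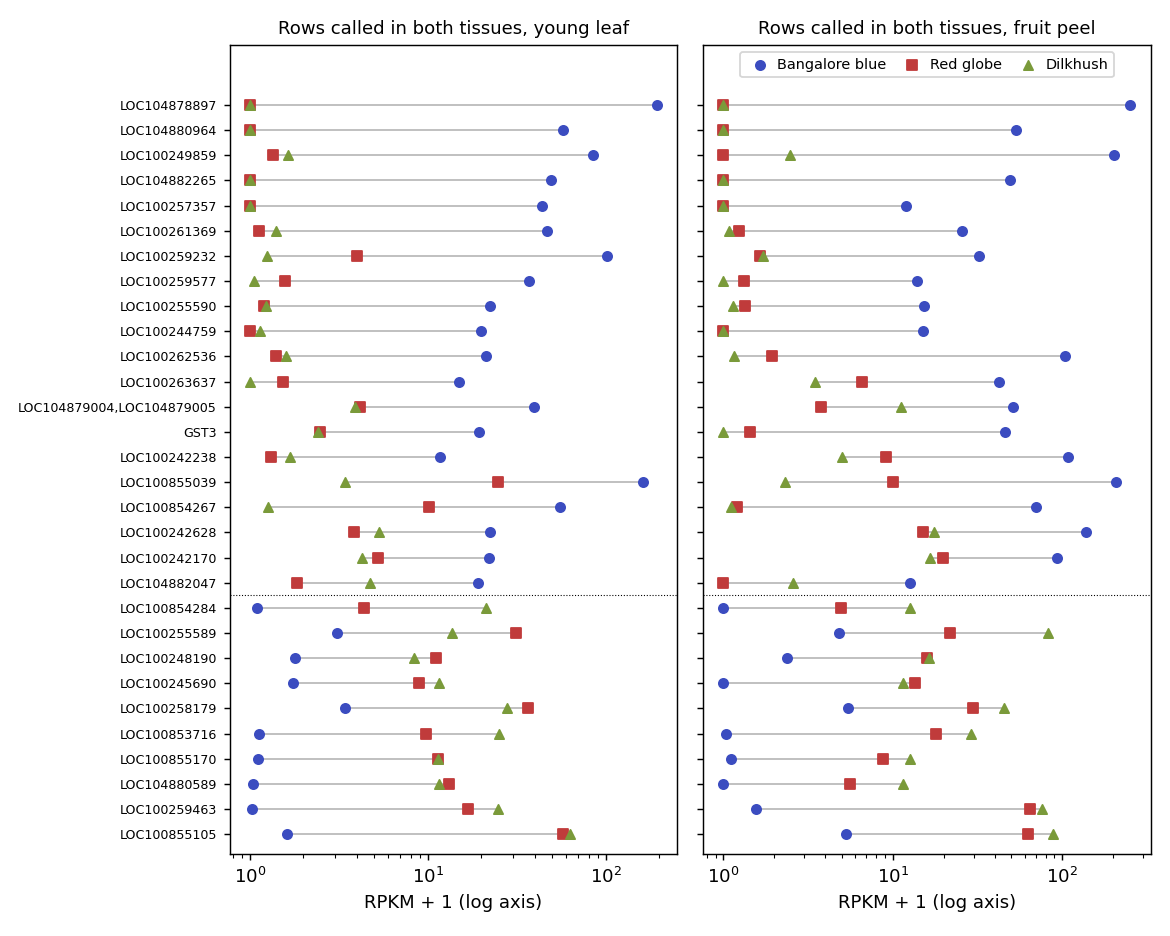
RPKM + 1 on a log axis for the 20 rows called higher and the 10 called lower in Bangalore blue in both tissues, leaf at left and peel at right, with 1 marker per cultivar. In the upper block Bangalore blue lies to the right of both others in each panel, and below the dotted line it lies to the left.

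The named stress, carotenoid and chitinase rows were not called in peel. DHN1 was at 3.29 RPKM in Bangalore blue peel, against 4.20 in Red globe and 10.97 in Dilkhush. NCED1 was at 2.19, 5.69 and 5.97 RPKM, and BCH1 at 0.346, 0.247 and 0.223. CCD4b was at 24.4, 13.5 and 0.413 RPKM, so Bangalore blue and Red globe were both above Dilkhush. CHI4D was abundant in every peel, at 14522, 12106 and 8177 RPKM. LOC100232985 (chit1a) was at 12.6, 4.59 and 4.41 RPKM, with log2 differences of 1.28 and 1.33, so it stayed higher in Bangalore blue but short of the limit.

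The lower rows with a symbol also looked different in peel. GST4 was at 2246 RPKM in Bangalore blue peel, against 1279 in Red globe and 9.86 in Dilkhush, so the cultivar that was lowest in leaf was highest in peel. THI1-2 was at 478, 219 and 259 RPKM, with Bangalore blue the highest. OMT2.1 was at 0.032, 0.30 and 0.20 RPKM, near 0 in every peel.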

How the data were processed

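The 12 libraries, from leaves and peels of 3 cultivars, were directional (strand-keeping) mRNA libraries, per the labels' protocols. The deposited values are RPKM, with 1 column per cultivar and tissue, per the file headers. TopHat2 2.1.1 and Cufflinks 2.2.1 are named, without their roles, per the submitters' processing notes. For the build, annotation, repeated alignments and merging of libraries, the steps were not given in the sources used here.

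Differences of log2(RPKM + 1) were taken within each table, since the tables were normalized separately. No test was possible with 1 value per group. The rule was tried on simulated data. Names came from the files and from RefSeq's gene table (assembly GCF_030704535.1), which held 176 of the 202 identifiers of called rows (87.1%, against 95.5% of rows at the floor). That table has no descriptions, promoters or proteins, so the planned use of those was not made, and gene lists were matched by symbol. Every called row with a symbol is named, with the row nearest the limit on each side in each direction. The planned rule also ranked rows by RefSeq description, which was not possible, so the unnamed rows and uncalled list rows given were chosen after their values were seen. The rows and lists were chosen with earlier results of these data known. Python 3.11.15, numpy 2.4.6, pandas 2.3.3 and matplotlib 3.10.9 were used. Alternatives were other pseudocounts, floors, fold limits, scalings and row filters.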

Additional observations from a re-analysis of the deposited data

Results flagged for a closer look

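Of the called leaf rows, 132 higher and 36 lower had a single matching peel row. In 6 of these Bangalore blue lay at least 4-fold from Dilkhush in opposite directions in leaf and in peel. The share over all matched rows was not counted, so nothing is read from the number. With 1 value per cultivar and tissue these differences between tissues were not tested. GST4 had a log2 difference of -3.92 in leaf and 7.69 in peel. LOC100255642 had 2.96 in leaf and -5.12 in peel, and was the 1 higher leaf row that was lower than both others in peel. The row named LOC100852625 and LOC104879049 had 4.14 and -2.38. LOC100855066 had 2.46 and -2.15, LOC100245451 had 2.37 and -2.17, and LOC100254219 had 2.32 and -2.39.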

How the results depend on the processing

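The 146 higher and 42 lower rows became 68 and 18 at an 8-fold limit. The lower count became 77 with a pseudocount of 0.1 and 86 at a 3-fold limit. The median peel difference of the higher rows became 0.659 with a pseudocount of 0.1. Counts under the other floors, scalings and row filters stayed within 1.5 times. Over all settings, higher rows made up 67.9% to 80.0% of those called, with the lowest share at a pseudocount of 0.1. Scaling to an equal total moved the median difference from Red globe to -0.18. That scaling without LOC100251335 in the total, chosen after seeing the data, gave 153 and 40. Of the gene list counts 1 moved, the lower defence rows, from 0 to 1 with a pseudocount of 0.1. No paired analysis was possible because the columns carry no replicate number, and leaving out replicates could not be run for the same reason. Depth limits are unknown, and rows listed at 0 have no detection limit.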
